A study of Mus musculus with 36 samples.

Results

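SNV-dense windows are stretches of 500 bp in which the genome of the mouse strain C3H/HeN (C3) differs from that of C57BL/6N (B6) at many single bases. A window of the fixed autosomal grid was a member when it held at least 5 positions of the deposited list of single-nucleotide variants (SNVs), at least 5 CpGs of the methylation tables and at least 30 counts in every animal. This rule used no methylation level. It kept 34450 of 1456902 windows with the same CpGs and counts, or 2.36%. Of the rest, 1135200 windows held 0 SNVs and 287252 held 1 to 4.

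A CpG is a cytosine followed by a guanine, and in mammals most of them carry a methyl group, apart from those in active promoters and enhancers. Bases around a CpG affect which proteins bind there, so that alleles of a locus can carry different methylation in the same nucleus. In an F1 animal each locus has an allele from either strain, and the level measured is an average over both alleles, weighted by the reads that each of them gave. An SNV can also count as a mismatch when a read is aligned to a reference genome, here mm9, which was made from a C57BL/6 mouse.

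Methylation was measured in liver by whole-genome bisulfite sequencing, in which unmethylated cytosines are converted and methylated ones stay. The 24 mice were 3 sires and 3 dams of B6, 3 sires and 3 dams of C3, 3 males and 3 females of B6C3F1 (B6 dam, C3 sire) and 3 males and 3 females of C3B6F1 (C3 dam, B6 sire). All were 20 weeks old. The parents had been mated at week 10 and their pups weaned at week 16, so the dams had borne pups and the F1 females were virgin. Per the study's methods the animals came as families of a sire, a dam and an F1 animal of each sex, so the 12 F1 animals are 6 pairs of siblings whose parents are among the 12 parents measured. The total of counts over autosomal CpGs was 365740739 to 619888157 per animal, or 19.4 to 32.8 counts per CpG. As a check of the tissue, windows at the start sites of the hepatocyte genes Alb, Apoa1, Apoa2, Fgb and Serpina1a averaged 14.7 to 26.6% methylation, and those of Krt5, Myh6, Gfap and Ins2, genes of other cell types, 71.1 to 86.6%. Liver is a mixture of cell types, and a change in their shares cannot be told apart from a change within a cell type.

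The members held 212885 SNVs, with a median of 6 and at most 17 per window, and 250226 CpGs, with a median of 6 per window. They covered 17.2 Mb. Transitions made up 71.8% of these SNVs. The sequences of 5 windows are printed first, because 4 of them have the 2 largest differences in either direction among the windows named at a C3 to B6 depth ratio of 0.8 to 1.2, and the other has the most SNVs of all members. Each is the stretch of 250 bases of its window with the most SNVs, on the plus strand of mm9, with the deposited base of the strain at each SNV in capitals and no other difference entered. Windows are numbered W1 to W32 after the rule that named them.

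The window W1, chr10:92718001-92718500, is intronic and lies where the annotations of Elk3, an ETS-family transcription factor, and Cdk17, a cyclin-dependent kinase, overlap. It had 6 SNVs and 11 CpGs and was more methylated in B6.
W1 B6, chr10:92718072-92718321: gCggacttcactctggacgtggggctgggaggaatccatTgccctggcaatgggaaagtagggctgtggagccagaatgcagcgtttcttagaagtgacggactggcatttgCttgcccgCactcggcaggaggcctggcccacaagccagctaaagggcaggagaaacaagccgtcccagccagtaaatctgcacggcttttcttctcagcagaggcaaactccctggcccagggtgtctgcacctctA
W1 C3, chr10:92718072-92718321: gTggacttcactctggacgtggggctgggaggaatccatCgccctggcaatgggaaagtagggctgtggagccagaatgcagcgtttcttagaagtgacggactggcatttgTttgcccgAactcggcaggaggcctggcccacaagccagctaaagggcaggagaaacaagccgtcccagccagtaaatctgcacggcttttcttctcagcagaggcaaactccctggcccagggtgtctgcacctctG

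The window W2, chr12:109579501-109580000, lies in an intron of Cyp46a1, the cholesterol 24-hydroxylase. It had 5 SNVs and 9 CpGs and was more methylated in B6.
W2 B6, chr12:109579527-109579776: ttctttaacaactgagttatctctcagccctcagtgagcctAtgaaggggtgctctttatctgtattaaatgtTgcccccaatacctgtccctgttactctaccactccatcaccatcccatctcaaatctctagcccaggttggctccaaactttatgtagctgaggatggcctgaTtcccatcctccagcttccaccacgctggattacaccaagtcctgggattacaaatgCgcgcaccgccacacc
W2 C3, chr12:109579527-109579776: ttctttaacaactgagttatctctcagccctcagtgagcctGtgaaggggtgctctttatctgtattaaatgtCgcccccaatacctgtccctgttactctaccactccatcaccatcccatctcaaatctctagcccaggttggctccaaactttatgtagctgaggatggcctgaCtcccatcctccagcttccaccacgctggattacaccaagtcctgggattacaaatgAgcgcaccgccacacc

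The window W7, chr17:24363501-24364000, overlaps exonic sequence of Ccnf, which encodes cyclin F, although this need not lie in the stretch shown. It had 8 SNVs and 7 CpGs and was more methylated in C3.
W7 B6, chr17:24363751-24364000: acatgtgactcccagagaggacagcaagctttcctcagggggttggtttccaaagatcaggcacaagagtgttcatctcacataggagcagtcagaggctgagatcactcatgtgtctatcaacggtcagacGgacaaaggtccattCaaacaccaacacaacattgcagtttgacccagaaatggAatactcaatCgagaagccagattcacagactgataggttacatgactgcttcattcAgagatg
W7 C3, chr17:24363751-24364000: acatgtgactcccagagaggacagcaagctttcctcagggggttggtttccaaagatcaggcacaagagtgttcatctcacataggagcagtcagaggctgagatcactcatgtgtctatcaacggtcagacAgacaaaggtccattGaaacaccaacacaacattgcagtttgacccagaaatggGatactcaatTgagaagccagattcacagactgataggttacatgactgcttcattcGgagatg

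The window W8, chr17:78779001-78779500, lies in an intron of Fez2. It had 6 SNVs and 12 CpGs and was more methylated in C3.
W8 B6, chr17:78779016-78779265: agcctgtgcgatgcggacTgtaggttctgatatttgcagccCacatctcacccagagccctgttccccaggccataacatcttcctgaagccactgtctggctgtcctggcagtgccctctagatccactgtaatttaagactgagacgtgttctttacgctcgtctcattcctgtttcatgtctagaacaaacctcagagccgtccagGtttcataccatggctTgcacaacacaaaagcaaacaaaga
W8 C3, chr17:78779016-78779265: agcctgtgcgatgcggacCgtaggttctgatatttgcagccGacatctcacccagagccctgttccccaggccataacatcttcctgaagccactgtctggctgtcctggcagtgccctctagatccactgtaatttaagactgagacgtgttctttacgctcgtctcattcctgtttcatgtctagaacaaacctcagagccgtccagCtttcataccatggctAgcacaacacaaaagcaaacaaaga

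The window W13, chr2:66361501-66362000, lies in an intron of Scn9a, a voltage-gated sodium channel, where the predicted gene Gm13629 is annotated too. It had 17 SNVs and 5 CpGs, and the strains did not pass the test there.
W13 B6, chr2:66361512-66361761: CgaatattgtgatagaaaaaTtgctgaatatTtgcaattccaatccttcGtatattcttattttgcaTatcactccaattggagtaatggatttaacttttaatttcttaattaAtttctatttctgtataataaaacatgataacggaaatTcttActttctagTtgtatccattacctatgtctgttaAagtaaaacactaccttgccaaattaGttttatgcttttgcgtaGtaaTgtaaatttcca
W13 C3, chr2:66361512-66361761: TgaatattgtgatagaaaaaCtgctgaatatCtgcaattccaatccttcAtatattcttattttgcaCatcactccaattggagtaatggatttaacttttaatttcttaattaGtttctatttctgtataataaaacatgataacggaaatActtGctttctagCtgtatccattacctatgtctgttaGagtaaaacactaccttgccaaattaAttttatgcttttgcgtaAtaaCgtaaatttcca

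The stretches show that SNVs make and remove CG dinucleotides. The stretch of W8 has 6 CGs in B6 and 8 in C3, that of W7 has 3 in B6 and 2 in C3, and that of W13 has 4 in B6 and 3 in C3. In W1 and W2 the numbers are equal, at 8 and 4, although the CGs are not all at the same places. Over all members the listed bases gave 32175 CGs in B6 alone, 31730 in C3 alone and 257775 in both, and 86.0% of members had a CG of a single strain. The tables were meant to hold CpGs of both strains, but 324 of the 250226 CpGs of members (0.129%) have a listed SNV at their C or G. By the listed bases 323 of them are a CG in B6 alone and 1 in C3 alone.

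At the 323 CpGs the counts gave 78.4 to 79.6% in B6 (median 78.9), 0.896 to 1.27% in C3 (median 1.08) and 45.5 to 48.3% in the F1 animals (median 47.8). All groups were apart there, and the value of C3 is not the methylation of a CpG, since its listed bases hold none. At all other CpGs of members B6 lay at 78.3 to 79.6%, C3 at 79.1 to 79.8% and the F1 animals at 79.2 to 79.6%. The 324 CpGs lie in 225 members, with at most 4 in a window, and were used below as deposited. Several of the results that include them are given without them too, an alternative added after the values had been seen. Apart from these CpGs, methylation at CGs of a single strain was not analysed here.

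To ask how often methylation differed between the strains where the sequence did, the 6 B6 parents were compared with the 6 C3 parents in all windows. Of the 34450 members 917 were called, or 2.66%, against 0.494% of all windows tested. A call needed a Benjamini-Hochberg adjusted p below 0.05 in limma over all windows, together with strain means at least 20 percentage points apart. All 917 members with 20 points or more also passed the adjusted p, the highest being 0.00162, so that the size of the difference alone set the count. B6 was higher in 480 of them (0.245% of all windows) and C3 in 437 (0.249% of all windows). Of the 225 members with a CpG that holds an SNV 82 were called, or 36.4%, 81 of them higher in B6. Without these CpGs 840 of 34373 members were called, or 2.44%, against 0.481% of all windows, with 403 higher in B6 and 437 in C3. All 840 are among the 917, and of the other 77 windows 51 no longer had enough CpGs or counts and 26 were below the threshold. With the adjusted p alone and all CpGs, 7307 members passed, or 21.2%, against 6.63% of all windows.

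The share of windows called was higher in each class of SNV number than in windows with 0 SNVs. It was 0.212% at 0 SNVs, 1.13% at 1 to 2 and 2.08% at 3 to 4. Within the members it was 2.58% at 5 SNVs, 2.54% at 6 to 7, 3.14% at 8 to 10 and 3.61% at 11 or more, the last from 18 windows called of 498. Without CpGs that hold an SNV these 4 shares were 2.42, 2.31, 2.84 and 3.01%. Just outside the rule, windows with 4 SNVs were called in 2.29%. The median size of the difference between strains, whatever its direction, was 1.36 points at 0 SNVs, 2.34 at 5 SNVs, 2.56 at 8 to 10 and 2.48 at 11 or more. Most SNV-dense windows therefore differed little between the strains. These shares are descriptions, since windows near each other are not independent.

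**Figure D1:**
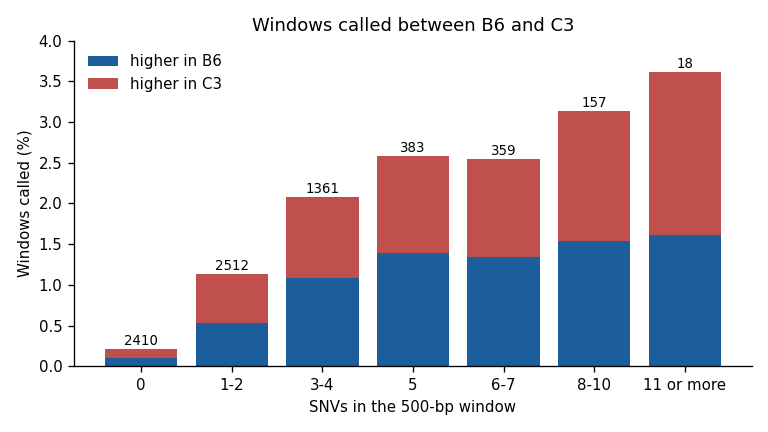
Windows called between B6 and C3 (% of the windows of a class, y axis) by the number of SNVs in the window (x axis), split by the strain with the higher methylation, with the number called above each bar. The share is 0.212% at 0 SNVs, and in members it lies between 2.54 and 3.61%, with nearly equal parts in either direction.

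At the called members the difference had a median size of 27.3 points (quartiles 22.9 and 35.5), and it reached 50 points or more in 52 windows, with 74.4 as the largest. The animals of the strains did not overlap in 901 of the 917 called members. Over all members, called or not, the strains did not overlap in 12.6%, against 3.497% of all windows. At the members called higher in B6, the mean level was 72.7% ± 0.240 (SD, n = 6) in B6, 42.3% ± 0.611 in C3 and 61.9% ± 0.633 (n = 12) in the F1 animals. At those called higher in C3, it was 43.7% ± 0.557 in B6, 74.3% ± 0.359 in C3 and 55.4% ± 0.767 in the F1 animals. These parental means follow from the calls, include the CpGs that hold an SNV and are given as a description.

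The minimum of 20 points fixed in part where calls could be made. Above 80% in both strains lay 63.2% of members and below 20% in both lay 2.22%, and no window there can differ by more than 20 points, so that 0 were called. Among members whose parents averaged 40 to 60%, 303 of 1603 were called, or 18.9%, against 1.66% of windows with 0 SNVs at the same level.

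The other comparisons had few calls. Sires and dams differed in 20 members, or 0.0581%, against 0.104% of all windows. Of the 20, 16 were higher in dams (0.0684% of all windows) and 4 in sires (0.0357% of all windows). The crosses B6C3F1 and C3B6F1 differed in 0 members by limma with adjusted p and 20 points, against 0.000686% of all windows, while 2433 members had an unadjusted p below 0.05, or 7.06%, close to the 6.63% of windows with 0 SNVs. With the adjusted p alone 1 member passed between the crosses (0.00192% of all windows), named here after its values were seen. It lay at chr1:63322001-63322500 in an intron of Zdbf2, an imprinted gene, and averaged 48.8% in B6C3F1 and 66.7% in C3B6F1 (limma adjusted p 0.0147). The strain difference was unlike in sires and dams in 2 members (adjusted p of the limma interaction term, 0.00178% of all windows), likewise named after the fact. Every female parent had borne pups, so sex and pregnancy cannot be told apart there. At chr1:21094001-21094500, 24691 bp from the start of Tram2, C3 averaged 38.6% in sires and 78.0% in dams, and B6 90.5% and 88.1% (adjusted p 0.00690). At chr4:154290001-154290500, 11686 bp from the start of Tnfrsf14, C3 averaged 56.8% in sires and 89.1% in dams, and B6 90.5% and 89.4% (adjusted p 0.0494).

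Depth moved with the number of SNVs. The C3 to B6 depth ratio, counts of the C3 parents over those of the B6 parents and scaled by the same ratio in windows with 0 SNVs, had a median of 1.02 at 0 SNVs and 0.743 in members. It was 0.793 at 5 SNVs, 0.734 at 6 to 7, 0.657 at 8 to 10 and 0.559 at 11 or more, and 0.832 at 4 SNVs, just outside the rule. At a fixed number of SNVs the ratio was mostly lower where more of them were transversions, with exceptions. Among members with 5 SNVs it was 0.835 with 0 transversions, 0.802 with 1, 0.777 with 2, 0.747 with 3, 0.692 with 4 and 0.701 with 5 (28 windows). At 6 SNVs it went from 0.803 with 0 to 0.681 with 4 and was 0.705 with 5 or more. At 7 SNVs it went from 0.766 to 0.620 and was 0.654 with 5 or more. At 8 SNVs it was 0.702 with 0, 0.708 with 1 and 0.626 with 5 or more.

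Since the rule itself asks for counts, depth was tested in windows chosen without the minimum of 30. Counts per CpG in the 36164 windows with at least 5 SNVs and 5 CpGs, relative to windows with 0 SNVs in the same animal, were 1.13 to 1.15 in B6 (mean 1.14 ± 0.00701, SD, n = 6) and 0.799 to 0.808 in C3 (0.802 ± 0.00322, n = 6). The F1 animals lay between them at 0.963 to 0.980 (0.970 ± 0.00548, n = 12), beside a midparent of 0.971. B6 and C3 did not overlap (exact two-sided permutation p = 0.00216, as small as 6 animals against 6 allow, and 0.00352 after adjustment over the 13 exact tests). The F1 animals also differed from either strain (exact permutation p = 5.39e-05 each, the smallest possible, adjusted 0.00035). The crosses did not pass the test (exact permutation p = 0.128). The minimum of 30 counts left out 1714 of these windows, or 4.74%. In 1708 of them a C3 animal but no B6 animal was below the minimum, and in 0 a B6 animal but no C3 animal.

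**Figure D2:**
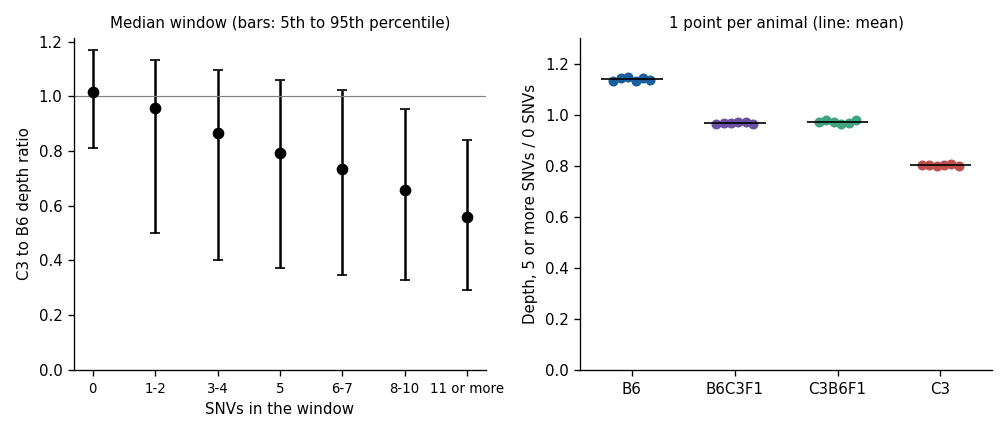
Left, C3 to B6 depth ratio (y axis) by the number of SNVs in the window (x axis), as the median with bars from the 5th to the 95th percentile of windows. Right, depth per CpG in windows with 5 or more SNVs relative to windows with 0 SNVs (y axis), 1 point per animal and a line at the mean of each strain or cross (x axis), with C3 at 0.799 to 0.808, B6 at 1.13 to 1.15 and the F1 animals between.

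The lower depth went with a larger spread among C3 animals. The median SD of a member was 2.50 points among the 6 B6 and 2.96 among the 6 C3 parents, while in windows with 0 SNVs it was 2.54 and 2.55.

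To ask where F1 animals lay between their parents, a position was computed over the called members for each F1 animal, with the C3 mean at 0 and the B6 mean at 1, and each window weighted by its difference between strains. It was 0.624 to 0.640 among the 12 F1 animals (0.632 ± 0.00427, SD), above the midpoint of 0.5 in 12 of 12 (two-sided permutation p by exact flipping of signs, 0.000488, as small as 12 animals allow, adjusted 0.00106). In windows called with 0 SNVs it was 0.584 ± 0.00611 in the same animals. The difference of 0.0488 ± 0.00565 was positive in all 12 (exact permutation p = 0.000488, adjusted 0.00106). The crosses did not pass the test, with B6C3F1 at 0.634 ± 0.00387 and C3B6F1 at 0.631 ± 0.00419 (n = 6 each, exact permutation p = 0.154). At members higher in B6 the position was 0.645 ± 0.0208 and at those higher in C3 it was 0.619 ± 0.0250, both above 0.5. Their difference did not pass the test over the 12 animals (exact permutation p = 0.0786). This test and these SDs pool the sexes, which were apart in both sets of members. At members higher in B6, F1 males lay at 0.612 to 0.647 and F1 females at 0.651 to 0.678. At members higher in C3, males lay at 0.622 to 0.669 and females at 0.578 to 0.612. The split by sex was seen after the fact and was not tested.

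The tests over 12 F1 animals take siblings as independent, and the labels do not say which F1 animals are siblings. With the mean of a male and a female of a cross as 1 of 6 families, the position against 0.5, its excess over windows with 0 SNVs and its distance from the weighted midparent given next each had an exact permutation p of 0.0312, the smallest for 6 families, under all 36 ways to pair the animals (0.0451 after adjustment). This test was added after the values were seen. For members higher in B6 against those higher in C3, p was 0.0312 to 0.0938, depending on the pairing. The relative depth of the 6 families differed from either strain with an exact permutation p of 0.00216. All tests of position, by animal or by family, held the parental means fixed, and the windows were called on those same means. Their p-values cover the spread among F1 animals and no error of the parental means.

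The position was higher in each class with more SNVs, from 0.584 at 0 SNVs over 0.623 at 5, 0.632 at 6 to 7 and 0.648 at 8 to 10 to 0.692 at 11 or more. A midparent weighted by the counts of either strain at each window, rather than an equal average, lay at 0.567, 0.603, 0.613, 0.628 and 0.677 in these classes. Over all called members it was 0.613, below the 0.632 of the F1 animals (exact sign-flip permutation p = 0.000488, adjusted 0.00106). This test took the weighted midparent as fixed, so an error of the parental means shared by all F1 animals was not covered. Within members with a C3 to B6 depth ratio of 0.8 to 1.2 the position was 0.549 ± 0.0110 and the weighted midparent 0.521. There 278 of 14005 members were called, or 1.99%, against 0.121% of windows with 0 SNVs in the same range. Where the ratio was below 0.5, 244 of 6027 members were called, or 4.05%, and the position was 0.733 ± 0.00923. Of the windows with 0 SNVs and a ratio below 0.5, 390 of 8806 were called, or 4.43%, at a position of 0.725 ± 0.0128. Without CpGs that hold an SNV the position over all called members was 0.633.

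**Figure D3:**
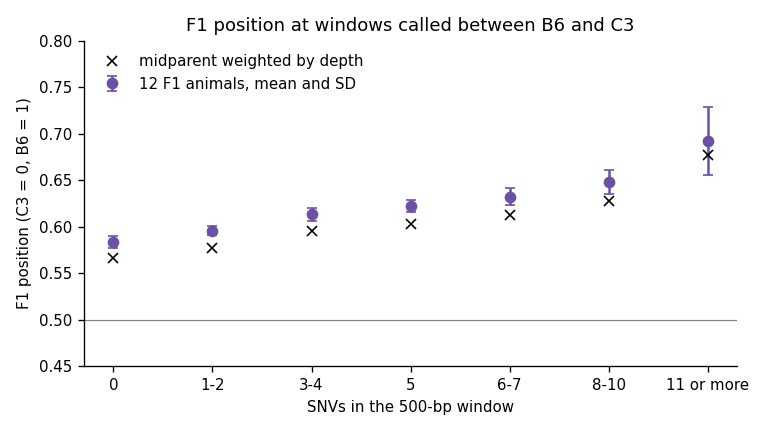
Position of the F1 animals between the C3 mean (0) and the B6 mean (1) at windows called between the strains (y axis, cut to 0.45 to 0.8) by the number of SNVs (x axis). Points with bars are the mean and SD of 12 F1 animals, crosses are the midparent weighted by depth and the grey line marks the midpoint. The F1 position goes from 0.584 at 0 SNVs to 0.692 at 11 or more and lies above the crosses in each class.

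Window by window, the F1 mean lay between the strain means in 913 of the 917 called members, or 99.6%, and nearer to B6 in 809, or 88.2%. In 231 called members, or 25.2%, all 12 F1 animals lay above every animal of the lower strain and below every animal of the higher strain. These counts were not made for called windows outside the members, so they cannot be read as particular to SNV-dense windows. The F1 mean was beyond B6 in 4 windows and beyond C3 in 0. Of these, 3 are named here after their values were seen. They were at chr2:130863501-130864000 near Gfra4, at chr5:147885001-147885500 in an intron of Lnx2 and at chr12:29493001-29493500 in an intron of Tssc1. Their depth ratios were 0.635, 0.446 and 0.332, and 1 CpG of the window in Tssc1 holds an SNV. At the window in Lnx2, B6 was at 36.5 to 55.2% (median 45.3), C3 at 59.5 to 78.4% (median 65.8) and the F1 animals at 28.9 to 55.9% (median 47.8), so that the F1 animals overlapped B6 but not C3.

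The members with the strongest differences were taken from windows with a depth ratio of 0.8 to 1.2, at least 10 counts per CpG in every parent and no overlap between the strains. This left 145 windows higher in B6 and 120 higher in C3, of which the 6 of largest difference in either direction were named. Among those higher in B6, W1 at Elk3 and Cdk17 was methylated at 64.6 to 72.2% in B6 (median 67.9), at 7.42 to 14.3% in C3 (median 8.72) and at 28.4 to 50.1% in the F1 animals (median 38.5). The groups did not overlap, the difference of the means was 58.7 points (limma adjusted p 3.71e-18), and the F1 position was 0.504 at a depth ratio of 0.979. W2 in Cyp46a1 was methylated at 88.6 to 91.8% in B6 (median 91.3), at 19.6 to 47.5% in C3 (median 35.2) and at 65.5 to 78.9% in the F1 animals (median 72.4). Here too the groups were apart, with a difference of 55.1 points (limma adjusted p 1.16e-18), and C3 animals were spread more widely (SD 11.2) than B6 animals (SD 1.203). The C3 sires, at 39.9 to 47.5%, did not overlap the C3 dams, at 19.6 to 30.5%. The strain difference did not pass the test for a difference between sires and dams (adjusted p of the limma interaction term 0.571). Sires and dams of a strain were apart at other named windows too. Examples are C3 at W5 (22.1 to 25.3% in sires, 29.3 to 32.1% in dams) and B6 at W29 (27.8 to 30.8% and 39.8 to 42.2%).

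The other 4 windows higher in B6 lay in introns of Spock1, a proteoglycan of the extracellular matrix (W3, chr13:57907501-57908000, 54.2 points), Ppfibp2, a liprin (W4, chr7:114779001-114779500, 53.4 points) and Wwox, an oxidoreductase with WW domains (W5, chr8:117121501-117122000, 51.3 points), and between genes 315956 bp from the start of Gfra1 (W6, chr19:58212501-58213000, 50.9 points). In each of them every B6 animal lay above every C3 animal, as the rule that named them required. Their F1 positions were 0.619, 0.573, 0.509 and 0.585.

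Among the windows higher in C3, W7 in Ccnf was methylated at 20.3 to 35.8% in B6 (median 26.3), at 88.7 to 95.6% in C3 (median 94.1) and at 41.2 to 74.5% in the F1 animals (median 53.5). The groups did not overlap and the means differed by -66.1 points, B6 minus C3 (limma adjusted p 7.58e-18). W8 in Fez2 was methylated at 24.2 to 36.6% in B6 (median 27.4), at 91.1 to 96.7% in C3 (median 92.1) and at 52.2 to 69.5% in the F1 animals (median 58.8). This window had a difference of -64.2 points (limma adjusted p 1.28e-17), an F1 position of 0.509 and a depth ratio of 0.949.

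The other 4 were an exonic window of Dnajc16, a member of the DnaJ family of co-chaperones (W9, chr4:141325501-141326000, -58.5 points), a window 23312 bp from the start of Eif5, a translation initiation factor (W10, chr12:112752501-112753000, -57.0 points), a window 368 bp from the start of Mcart1, a mitochondrial carrier (W11, chr4:45422001-45422500, -55.6 points) and an intronic window of the phospholipase gene Plb1 (W12, chr5:32586001-32586500, -54.0 points). W11 was the least methylated of these in B6, at 0.227 to 1.58% (median 0.862), while C3 lay at 51.8 to 66.1% (median 54.7) and the F1 animals at 10.98 to 29.4% (median 24.01). Its F1 position was 0.629.

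**Figure D4:**
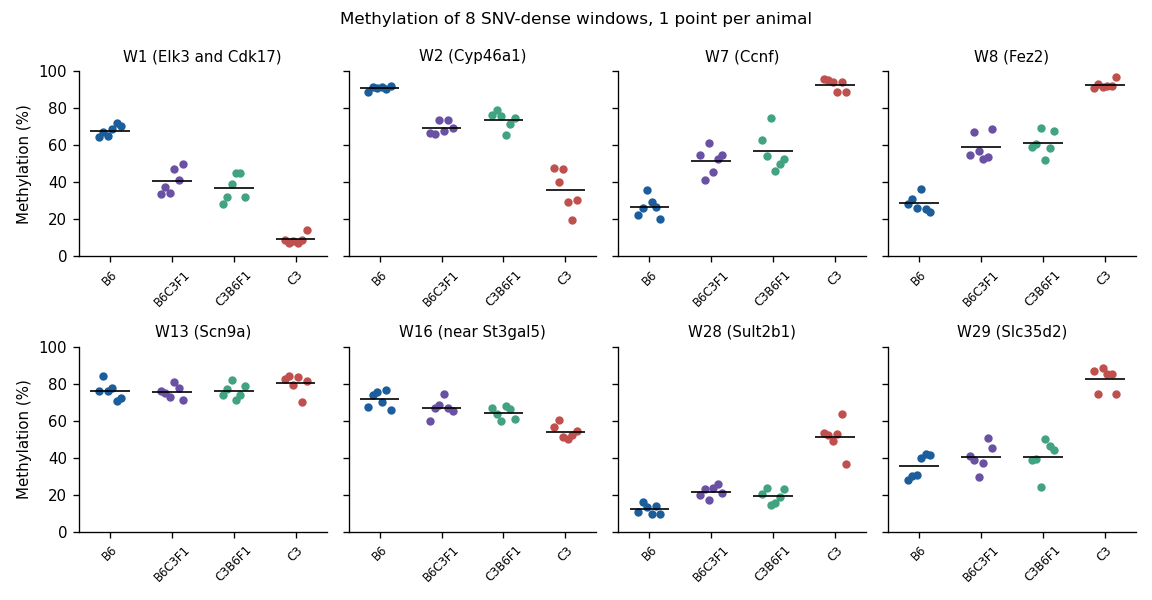
Methylation (%, y axis) of 8 SNV-dense windows in each animal, by strain or cross (x axis), with a line at the mean of 6 animals. W1, W2, W7 and W8 have F1 animals between strains that do not overlap, W13 and W16 have 17 and 15 SNVs and were not called, and in W28 and W29 the F1 animals lie close to B6.

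The 6 windows with the most SNVs were described whatever their methylation, and none of them was called. W13 in Scn9a, with 17 SNVs, was at 70.8 to 84.0% in B6 (median 76.1), at 70.0 to 84.3% in C3 (median 82.0) and at 71.0 to 81.9% in the F1 animals (median 75.5). All groups overlapped, and the difference of -3.998 points did not pass the test (limma adjusted p 0.412). W14 in an intron of Egfr, the epidermal growth factor receptor (chr11:16682001-16682500, 16 SNVs), differed by 1.63 points (adjusted p 0.77). W15, far from the nearest gene Mettl15 (chr2:108231501-108232000, 15 SNVs), differed by -4.05 points (adjusted p 0.306). W17 in an intron of Galnt10, which adds sugars to proteins (chr11:57565001-57565500, 15 SNVs), differed by -4.79 points (adjusted p 0.0606).

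The remaining 2 passed the adjusted p of limma at less than 20 points. W16, 46607 bp from the start of St3gal5, a sialyltransferase (chr6:72000501-72001000, 15 SNVs), was at 65.9 to 76.5% in B6 (median 71.8), at 50 to 60.2% in C3 (median 53.3) and at 59.6 to 74.5% in the F1 animals (median 66.7). The strains did not overlap and differed by 17.5 points (adjusted p 7.74e-06). This difference rests on CpGs that are no CG in C3, since 4 of the 13 CpGs of W16 hold an SNV. Without these 4, B6 lay at 66.2 to 77%, C3 at 70.8 to 82.6% and the F1 animals at 64.6 to 81.9%. All groups then overlapped, and the difference was -6.37 points (limma adjusted p 0.145). W18 near 3110018I06Rik (chr12:108792001-108792500, 15 SNVs) differed by 12.98 points (adjusted p 1.9e-06) at a depth ratio of 0.323. The depth ratios of W13 to W18 were 0.323 to 0.738.

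Start sites of protein-coding genes lay in 321 members, or 0.932%, against 1.79% of windows with 0 SNVs. Of these 321 members 7 were called, or 2.18%, beside 2.66% of all members, with 1 higher in B6 and 6 higher in C3. More calls higher in C3 were also made at start sites with 0 SNVs (12 higher in B6, 40 in C3) and with 1 to 4 SNVs (23 and 35). The window W19 at Rps6ka1, a ribosomal S6 kinase (chr4:133442001-133442500, 9 SNVs), was at 32.5 to 47.5% in B6 (median 39.3), at 4.85 to 14.7% in C3 (median 7.59) and at 23.7 to 36.4% in the F1 animals (median 29.5). The strains did not overlap and differed by 30.7 points (limma adjusted p 1.97e-11) at a depth ratio of 0.536. Without the 1 CpG of its 9 that holds an SNV they differed by 31.1 points. Higher in C3 were the start sites of E230028L10Rik (W20, chr4:155165001-155165500, -34.7 points), the calpain gene Capn3 (W21, chr2:120289001-120289500, -32.8 points), the alkaline ceramidase gene Acer2 (W22, chr4:86576501-86577000, -27.3 points), Uqcc (W23, chr2:155756001-155756500, -25.0 points), the sulfotransferase gene Sult2b1 (W24, chr7:52997501-52998000, -23.5 points) and Mtus1 (W25, chr8:42168001-42168500, -20.9 points). Each of these 6 had all C3 animals above all B6 animals. Their depth ratios were 0.803, 0.512, 0.697, 0.315, 0.892 and 0.882 in this order. At W23 the C3 animals had 31 to 53 counts, near the minimum of 30, and lay at 29.3 to 58.1%. Transcripts were not analysed here.

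By position, 13.9% of members overlapped an exon, 41.4% lay in introns and 44.8% between genes, and among the called members these shares were 12.98, 44.7 and 42.3%. More than 10 kb from any start site lay 76.7% of members and 72.5% of the called ones. The members were clustered. Of 2417 autosomal bins of 1 Mb, 1656 held a member, and 205 bins, or 8.48%, held 50% of them. The densest bin, chr12:113000001-114000000, held 242 members. A neighbouring window was also a member for 19.5% of members, and of 25 pairs of neighbours that were both called, 23 had the same direction.

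Gene families were counted by the prefix of the gene symbol, and their counts stand beside the 2.66% called over all members. No family was tested against the other members, and windows of 1 gene are not independent. Cytochrome P450 genes (Cyp) overlapped 18 members, of which 3 were called, or 16.7%, all higher in B6 and all in the single gene Cyp46a1. They are W2, the next window, chr12:109580001-109580500, at 67.8% in B6 and 21.5% in C3, and chr12:109578501-109579000 at 46.2% in B6 and 18.1% in C3. Sulfotransferase genes (Sult) overlapped 7 members, of which 2 were called, or 28.6%, both in the single gene Sult2b1 and higher in C3. The window W28 in its intron (chr7:52994501-52995000, 9 SNVs) was at 9.56 to 16.1% in B6 (median 11.9), at 36.6 to 63.6% in C3 (median 52.5) and at 14.6 to 26.1% in the F1 animals (median 20.6). The F1 animals overlapped B6 but not C3, the difference was -39.1 points (limma adjusted p 4.12e-12), and the depth ratio was 0.242.

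Receptors of natural killer cells (Klr) overlapped 9 members with 1 called (11.1%), W30 in Klra17 (chr6:129804001-129804500, 26.3 points), and Nlrp genes, of which several act in inflammasomes, overlapped 13 with 1 called (7.69%), W31 in Nlrp9b (chr7:20616001-20616500, 34.4 points). Olfactory receptors (Olfr) overlapped 36 with 1 called (2.78%), W26 in Olfr90 (chr17:37222501-37223000, -40.9 points). Zinc finger genes (Zfp) overlapped 296 with 6 called (2.03%), led by W27 in Zfp710 (chr7:87197001-87197500, -36.5 points). Solute carriers (Slc) overlapped 431 with 10 called (2.32%), led by W29 in Slc35d2 (chr13:64209501-64210000, -47.0 points). At W29 the 12 F1 animals lay at 24.1 to 50.5% (median 40.3), beside 27.8 to 42.2% in B6 (median 35.3) and 74.2 to 88.3% in C3 (median 85.3), and the depth ratio was 0.306. Predicted genes (Gm) overlapped 1048 with 25 called (2.39%), led by W32 in Gm16348 (chr8:42305001-42305500, -62.1 points). A single call in so few members says nothing of the Klr, Nlrp or Olfr genes as a family, and the shares of the Olfr, Zfp, Slc and Gm genes lay near the 2.66% of all members.

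No call was made in the members of 7 further families, which at 2.66% and so few members is no result about them. These were 60 members at protocadherins (Pcdh), which serve in cell adhesion, 11 at the major histocompatibility complex (H2), 5 at vomeronasal receptors (Vmn1r and Vmn2r), 3 at Serpin genes, 2 at Gst genes and 1 each at Skint and Ly6 genes. Ugt, Mup, Defa, Speer and immunoglobulin variable genes overlapped 0 members.

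Averaged over all members, methylation was 80.04% ± 0.398 (SD, n = 6) in B6, 80.6% ± 0.386 in C3 and 80.5% ± 0.227 (n = 12) in the F1 animals. The strains overlapped, and their difference of -0.548 points gave an exact permutation p of 0.039 and 0.0506 after adjustment, so that it did not pass. Without CpGs that hold an SNV it was -0.663 points (exact permutation p = 0.0195, not adjusted). Both tests pool the sexes, although with all CpGs every sire lay above every dam of its strain. B6 sires lay at 80.1 to 80.7% and B6 dams at 79.6 to 79.8%. C3 sires lay at 80.6 to 81.1% and C3 dams at 80.2 to 80.4%. The strains thus overlapped in sires but not in dams. Sires also lay above dams of their strain in windows with 0 SNVs, and this order was not tested. Windows with 0 SNVs were at 77.9% ± 0.370 in B6 and 78.6% ± 0.393 in C3 (exact permutation p = 0.0108, adjusted 0.0156). Taken within each animal, the members exceeded windows with 0 SNVs by 2.11 to 2.20 points in B6 (mean 2.14 ± 0.0369) and by 1.93 to 2.00 in C3 (1.98 ± 0.0311). These ranges did not overlap (exact permutation p = 0.00216, adjusted 0.00352). The excess includes the CpGs that hold an SNV and was not computed without them. Leaving them out moved the strain difference over members from -0.548 to -0.663 points, nearer to the -0.712 points of windows with 0 SNVs. Much of the gap between the strains in this excess can therefore rest on these CpGs.

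The median difference between the strains differed with the number of CGs that the SNVs made or removed. Where C3 had at least 3 CGs fewer than B6, in 1163 members, the median of B6 minus C3 was 0.352 points. Where the numbers were equal, in 10809 members, it was -0.641, and where C3 had at least 3 more, in 1086 members, it was -1.30. The classes between had -0.0215, -0.383, -0.883 and -1.15 points in the same order. The depth ratio was nearly the same in all classes, at 0.731 to 0.747. The share called was 4.04, 3.602, 2.87, 2.54, 2.26, 2.03 and 2.67% from at least 3 CGs fewer to at least 3 more in C3, the last from 29 calls. B6 was higher in 59.6, 59.5, 52.3, 53.8, 44.6, 53.0 and 41.4% of those calls, so that the direction of calls did not follow the order of the classes throughout.

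These values include the CpGs that hold an SNV, of which all but 1 are a CG in B6 alone. Without them the medians were 0.316, -0.0605, -0.422, -0.655, -0.888, -1.15 and -1.304 points in the same order, and 17 of 36 calls in the first class were higher in B6, where with them it had been 28 of 47. Without all CpGs within 10 bp of an SNV, in 22566 windows, the medians were -0.182, -0.259, -0.484, -0.603, -0.766, -0.848 and -0.930. The order of the classes thus held over a smaller range, and C3 was the higher strain in each class. Windows with 0 SNVs had a median of -0.631 points, so a higher level in C3 was not particular to members.

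Per animal, the windows with at least 3 CGs fewer in C3 exceeded those with at least 3 more by 0.647 to 1.03 points in B6 (mean 0.865 ± 0.132, SD, n = 6), and by -1.50 to -1.04 points in C3 (-1.30 ± 0.175, n = 6). The F1 animals lay between at -0.256 to 0.186 (0.0204 ± 0.134, n = 12). The strains did not overlap (two-sided exact permutation p = 0.00216, the smallest possible, not adjusted). This last test was chosen after the medians had been seen and lies outside the 13. Without CpGs that hold an SNV the means were 0.821 in B6, -0.934 in C3 and 0.135 in the F1 animals. Without those within 10 bp of an SNV they were 0.209, -0.525 and -0.118, with B6 at -0.140 to 0.376 and C3 at -0.696 to -0.318. The strains did not overlap in either case (exact permutation p = 0.00216 each).

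**Figure D5:**
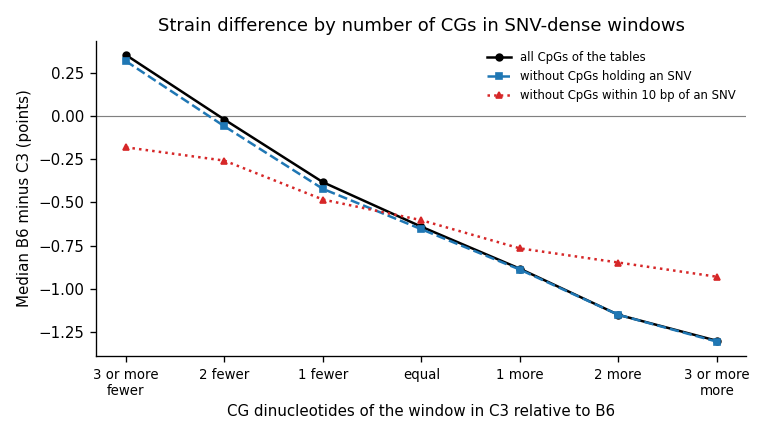
Median of B6 minus C3 methylation (percentage points, y axis) by the number of CG dinucleotides that the window has in C3 relative to B6 (x axis), over the 34450 members with all CpGs of the tables (black), without CpGs that hold an SNV (blue) and without CpGs within 10 bp of an SNV (red). The black median goes from 0.352 points where C3 has 3 or more fewer to -1.30 where it has 3 or more in excess, and the red one from -0.182 to -0.930.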

How the data were processed

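The authors deposited, per animal, counts of reads with a methylated and with an unmethylated base at each autosomal CpG, and a list of the mm9, B6 and C3 base at each SNV. Per the labels and the study's methods, reads were filtered by base quality, aligned to mm9 with Bismark 0.7.8 on Bowtie 0.12.8, deduplicated, clipped and merged per animal. Per these methods CpGs were kept where both strains have the dinucleotide, although 324 CpGs of members hold a listed SNV. The SNVs came from local assemblies of either strain, and the program that called them is not given in the sources used here. The part of the alignment in the depth at SNVs was not tested.

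All 48 count columns were used. Methylation is the share of methylated counts in a window. Windows of 500 bp needed at least 5 CpGs and 30 counts in every animal. limma 3.58.1 (R 4.3.3, trended and robust) was fitted to log2 ratios of the counts with a pseudocount of 1, over all 1456902 windows and 24 animals as 8 groups of strain or cross and sex, and was tested on simulated data. Single values per animal were compared by two-sided exact permutation tests, 13 in all. Annotation was that of GENCODE for mm9, and C3 sequences were the mm9 sequence with the listed bases. Python 3.11.15 and pysam 0.24.0 were used.

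Windows were named by size of difference (6 per direction, depth ratio of 0.8 to 1.2, at least 100 kb apart, outside chromosome 18), by SNV number (6), by start sites and by gene family. The members, lists and tests were chosen with earlier results of these data known. p-values measure the spread between animals of inbred strains, and those of the F1 position the spread between F1 animals alone. Replicate numbers were not taken to pair animals, since the labels tie no number to a family. Of 84 same-numbered pairs over the 8 groups, 0 had deviations correlated above 0.1. No other numbering passed 0.1 either, with 0.0651 as the highest value, so this cut cannot tell whether numbers mark families. Of the 84 pairs, 47 correlated best with their own number. Fits and tests over F1 animals therefore take siblings as independent, unless families are named. Replicates correlated at 0.958 to 0.983 and 0 were identical. The alternatives changed the minimum of counts, CpGs, SNVs and points, the pseudocount, scale, test, grid and depth, and left out each animal, and after the values were seen also the CpGs that hold an SNV. A window whose F1 mean lay beyond B6 is counted but not reported here.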

Additional observations from a re-analysis of the deposited data

Results flagged for a closer look

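In 7 of 152 sets of 6 animals the highest or lowest animal stood apart from the other 5, by a gap of more than 0.625 of the whole range. Chance flags about 1 in 20 such sets, so this number is near what chance gives. At W1 a C3 female had 14.3% methylation (Wilson 95% interval 10.3 to 19.6, 217 counts), beside 7.42 to 8.90% in the other C3 animals. At W13 a C3 female had 70.0% (57.5 to 80.1, 60 counts), beside 79.2 to 84.3%. At W17 a C3B6F1 male had 90.0% (85.2 to 93.4, 210 counts), beside 82.9 to 85.2%. At the start site of E230028L10Rik (W20) a C3B6F1 female had 74.8% (66.6 to 81.5, 127 counts), beside 59.4 to 63.3%. At W27 in Zfp710 a B6C3F1 male had 28.2% (22.6 to 34.7, 209 counts), beside 38.1 to 42.9%. At W30 in Klra17 a B6C3F1 male had 63.5% (59.3 to 67.5, 537 counts), beside 73.4 to 78.8%. Intervals cover counting error only. Over the members called higher in B6, a C3 male averaged 43.5%, beside 41.8 to 42.2% in the other C3 animals.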

How the results depend on the processing

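The count of 917 says little about the tests, since the minimum of 20 points alone set it: it was 917 again with a pseudocount of 5, the arcsine scale, the replicate block, the 12 parents alone and a quasi-binomial test. With the adjusted p alone, the count over the same windows moved from 5425 (quasi-binomial test) to 7961 (pseudocount 5), beside 7307. The replicate block gave 7297 and changed no call of a window at 20 points in number, and 47 of 84 same-numbered pairs correlated best with their own number, among them 6 of 6 pairs of an F1 male and female of a cross, a hint from the data only. Without 1 animal at a time, 917 to 938 members were called between strains, 17 to 25 between sires and dams and 0 between crosses, the F1 position was 0.628 to 0.637, its excess over windows with 0 SNVs 0.0463 to 0.0533, the difference of relative depth 0.335 to 0.339, and that of mean methylation -0.678 to -0.436 points. The last missed an exact permutation p of 0.05 without some of the animals, and also with at least 100 counts (-0.480 points) or 10 CpGs (-0.348 points).

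Another minimum of points over the same 34450 members gave 3300 calls between strains at 10 points and 367 at 30 points. The other settings changed the windows themselves, and called 2278 windows with at least 3 SNVs, 175 with at least 8, 278 within the depth ratio of 0.8 to 1.2, 351 with at least 100 counts, 151 with at least 10 CpGs and 551 without CpGs within 10 bp of an SNV. As a share of the windows kept, these were 1.99 to 3.18%. Between sires and dams the counts were 161, 6, 70, 4, 10, 9 and 2 for the first 7 of these settings, and between crosses 1 at 10 points and 1 with at least 3 SNVs. The F1 position stayed above 0.5 in all of them, at 0.549 to 0.653, lowest within the depth ratio of 0.8 to 1.2, where its excess over windows with 0 SNVs was 0.0180. Among the named windows only W16 turned its direction, to -6.94 points without CpGs within 10 bp of an SNV and to -6.37 points without its 4 CpGs that hold one. W17 passed the adjusted p of limma in 7 settings. Depth limits C3 most, at 21.0 counts per CpG in members, beside 31.6 in B6.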
